A study of Mus musculus with 9 samples.

Results

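Voltage-gated calcium channels are built from a pore-forming α1 subunit and auxiliary α2δ, β and γ subunits, and 10 mouse genes of these 4 families are described here: Cacna1b, Cacna1g, Cacna1h, Cacna2d1, Cacna2d2, Cacna2d3, Cacnb1, Cacnb3, Cacng4 and Cacng7. They were taken by symbol from a list, out of 24170 genes for which read counts were added over RefSeq transcripts. RNA was sequenced from primary mouse cultures of 3 cell types, with 3 replicate experiments of each. Both glial types were cortical and from pups of either sex: astrocytes were taken on postnatal days 1 to 3 and kept in culture for about 21 days, and oligodendrocyte progenitor cells (OPC) on postnatal days 6 to 9 with 6 to 7 days of culture. Sensory neurons of the dorsal root ganglion (DRG) were embryonic, from stage E13.5, with about 2 weeks of culture. The labels give no strain, genotype or drug treatment for any group. Donor age and culture time varied with cell type throughout, and the tissue differed between DRG neurons and glia, so these cannot be told apart from cell type.

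Calcium channels open when the membrane is depolarised and let calcium in, which triggers transmitter release at nerve endings and calcium signals elsewhere in the cell. The α1 subunit sets the channel class: N-type channels act at presynaptic terminals, and T-type channels open near the resting potential and shape firing. The α2δ and β subunits bring α1 to the membrane and tune its gating, and most γ subunits of neural cells are known as TARPs, which escort and modulate AMPA-type glutamate receptors rather than calcium channels.

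The libraries held 30710093 to 53594210 assigned counts. Levels are given as CPM, the usual depth-scaled read counts, with library sizes scaled by TMM factors, and means carry the SD over n = 3 libraries. Summed marker levels were highest in the labelled cell type in 3 of 3 libraries of each, although single genes departed from the sums. Of 10 pan-neuronal markers 9 were higher in DRG neurons than in OPC (28.4% of all genes). Map2 held 0.463 ± 0.228 CPM in DRG neurons and 33.9 ± 9.25 CPM in OPC. Sensory neuron markers summed to 6536 to 6752 CPM in DRG neurons and to at most 17.0 CPM in any glial library. Astrocyte markers summed to 6747 to 8569 CPM in astrocytes and at most 1256 CPM elsewhere. OPC markers summed to 5105 to 6929 CPM in OPC and at most 1312 CPM elsewhere. Of 10 astrocyte markers 9 were lower in DRG neurons than in astrocytes (32.8% of all genes). Aldoc held 573 ± 255 CPM in DRG neurons and 361 ± 45.3 CPM in astrocytes. Of 10 OPC markers 9 were higher in OPC than in DRG neurons (31.1% of all genes) and 8 than in astrocytes (26.3%). Marker tallies were not repeated without genes that 1 cell type alone carried past the filter on low counts. Lhfpl3 held 2.98 ± 1.19 CPM in DRG neurons and 0.0927 ± 0.0615 CPM in OPC. C1ql1 held 67.1 ± 30.3 CPM in astrocytes and 61.6 ± 43.9 CPM in OPC. Astrocytes replicate 1 stood apart from replicates 2 and 3, with 2867 CPM of microglia markers against 496 and 462, 1160 CPM of fibroblast and mural markers against 8407 and 9862, and 191 CPM of cell cycle genes against 2148 and 1379. Schwann and satellite glia markers summed to 3780 to 9014 CPM in DRG neurons, most of it from Ngfr (5866 ± 2640 CPM) and Scn7a (703 ± 31.4 CPM), which sensory neurons also express. Fibroblast and mural markers summed to 250 to 552 CPM in DRG neurons and at most 2.91 CPM in OPC. All 10 were higher in DRG neurons than in OPC, as were 28.4% of all genes. DRG replicate 1 had the most pan-neuronal marker reads (50730 CPM against 25880 and 29350) and the fewest of Schwann and satellite glia (3780 CPM against 9014 and 7723). The part of these markers in the DRG levels was not tested. In bulk RNA such as this, fewer cells of a type and less RNA per cell cannot be told apart.

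The N-type pore Cacna1b, the T-type pore Cacna1h, the α2δ genes Cacna2d1 and Cacna2d3 and the β gene Cacnb3 were each highest in DRG neurons. The TARP genes Cacng4 and Cacng7 were highest in OPC. Cacna1g, Cacna2d2 and Cacnb1 had too few isoform-specific reads to be tested, so 7 of the 10 genes passed the filter on low counts, Cacna2d1 through its DRG libraries alone.

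**Figure D1:**
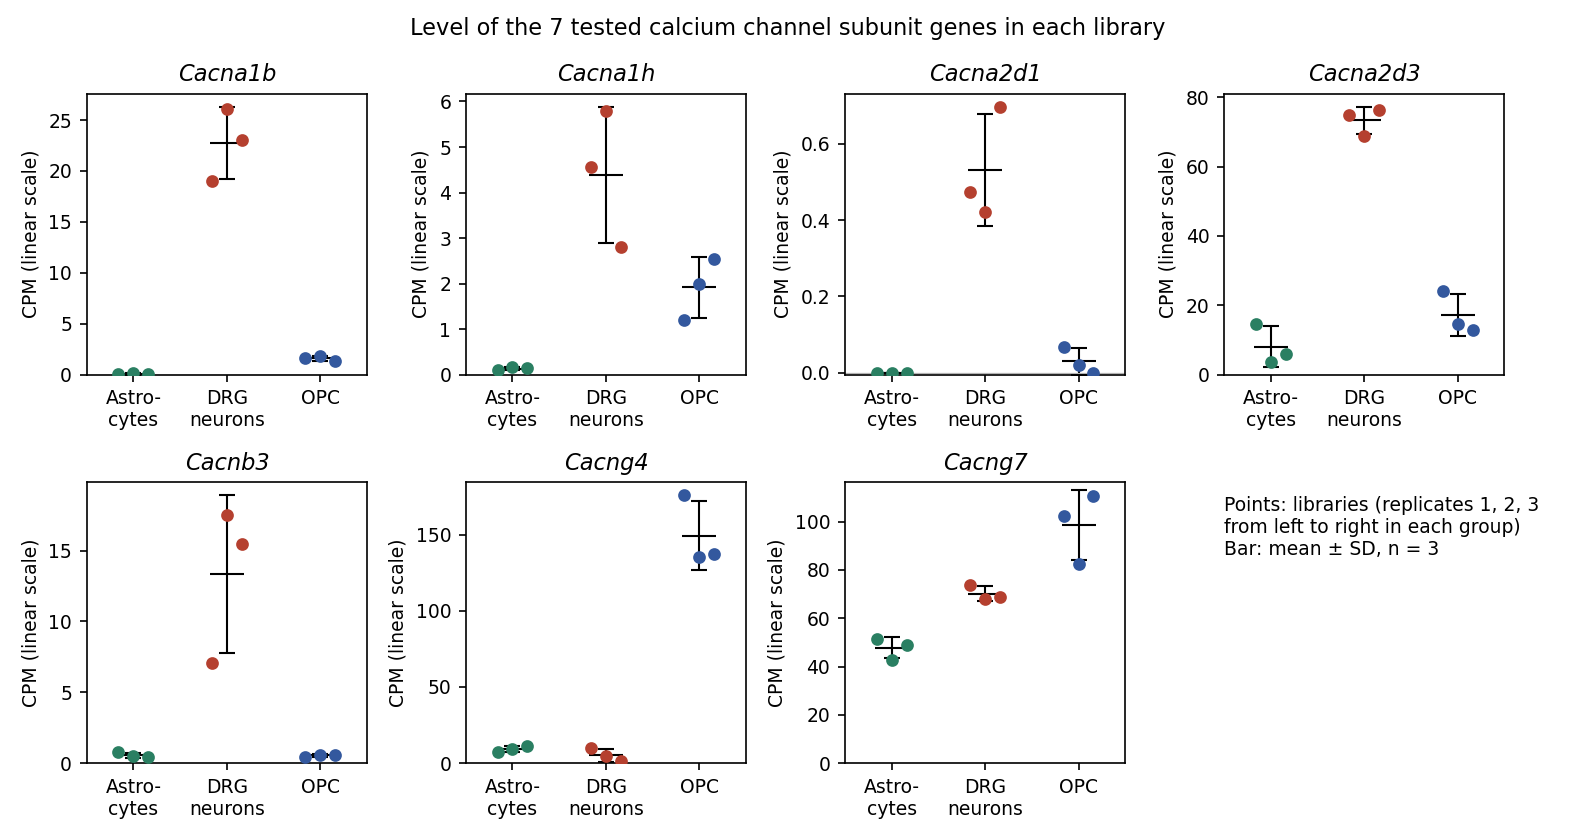
Level of each of the 7 tested subunit genes, in CPM on a linear scale that differs between panels, in astrocytes (green), DRG neurons (red) and OPC (blue). Points are libraries, and bars give the mean ± SD of 3 libraries. Cacna1b, Cacna2d1, Cacna2d3 and Cacnb3 stand above both glial types in every DRG library, and Cacng4 stands at 135 to 176 CPM in OPC with no other library above 11.2 CPM.

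Cacna1b (chr2:24603860-24763200, mm10, protein coding) encodes the pore of the N-type channel, which drives transmitter release from sensory nerve endings. It was measured at 19.0, 26.1 and 23.0 CPM in DRG neurons, at 1.63, 1.81 and 1.37 CPM in OPC, and at 0.0376, 0.142 and 0.0276 CPM in astrocytes. The 3 groups did not overlap, and their order was DRG neurons, OPC, astrocytes. Each step of this order passed the edgeR quasi-likelihood test with Benjamini-Hochberg adjustment over 14848 genes. Cacna1b in DRG neurons exceeded OPC 14.1-fold (log2 3.82, SE 0.43, adjusted p = 8.01e-05), and OPC exceeded astrocytes 22.4-fold (log2 4.48, SE 0.50, adjusted p = 0.000146). Against astrocytes, DRG neurons stood 316-fold higher (log2 8.30, SE 0.56, adjusted p = 4.56e-06). Astrocytes held 9 reads of Cacna1b in all, 6 of them in replicate 2, and without that library the log2 differences from astrocytes were 9.29 for DRG neurons and 5.47 for OPC. Beside the OPC level, pan-neuronal markers summed to 343 to 356 CPM in OPC and 163 to 205 CPM in astrocytes. Of these 10 markers 6 were higher and 1 lower in OPC, where 26.3% of all genes were higher and 25.5% lower. Elavl3 held 122 ± 25.7 CPM in OPC and 5.55 ± 1.63 in astrocytes, while Stmn2, the lower one, held 2.42 ± 2.22 and 123 ± 17.9 CPM. Their part in the OPC level was not tested.

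Cacna1b has 2 accessions in the files, and reads shared by both are taken to be among those listed as ambiguous, so its counts are read as isoform-specific reads. The accession NM_007579 took 25.3% of them in DRG replicate 1 (142 of 562 reads, exact 95% binomial interval 21.7 to 29.1%), 22.0% in replicate 2 (19.7 to 24.4%) and 21.5% in replicate 3 (18.9 to 24.4%). In OPC it took 0 of 73 reads in replicate 1, which allows a share of up to 4.11% by a limit of 3 counts (exact upper bound 4.93%), 1 of 89 in replicate 2 (1.12%, 0.0284 to 6.10%) and 0 of 57 in replicate 3, which allows up to 5.26% by that limit (exact upper bound 6.27%). All 3 DRG intervals lay above all 3 OPC intervals. The mean share was 22.9 ± 2.04% in DRG neurons and 0.375 ± 0.649% in OPC, a difference of 22.6 percentage points, and the exact two-sided permutation test gave p = 0.1, the smallest that 3 against 3 libraries allow (adjusted p = 0.1 over 2 such tests). Without molecular identifiers, these intervals reflect counting error alone. They are shares of isoform-specific reads and not of transcripts. NM_007579 is 9655 bases long and NM_001042528 6984, and the length of the stretch specific to each was not measured. Astrocytes held too few reads of Cacna1b for a share.

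**Figure D2:**
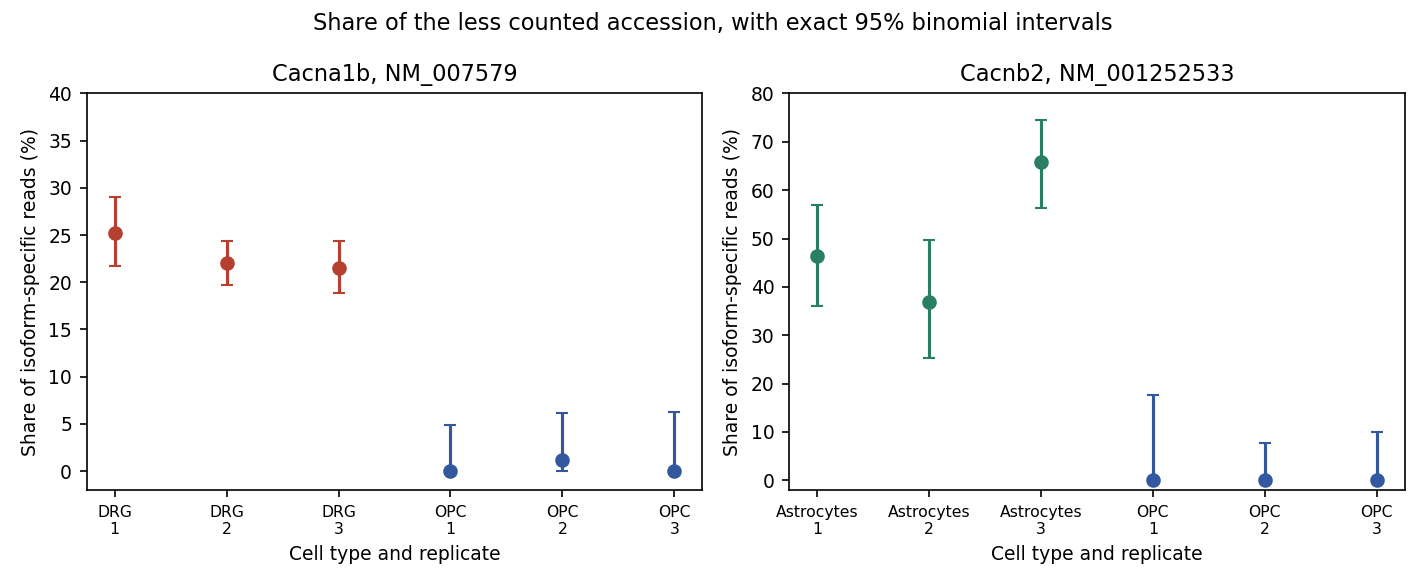
Share of isoform-specific reads, in percent, that fell on the less counted of 2 accessions of Cacna1b (left, DRG neurons and OPC) and Cacnb2 (right, astrocytes and OPC), by library with exact 95% binomial intervals. The Cacna1b accession took 21.5 to 25.3% in DRG neurons and at most 1.12% in OPC, and the Cacnb2 accession took 36.9 to 65.8% in astrocytes and 0 in OPC.

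Cacna1h (chr17:25374285-25436334) encodes a T-type pore that makes sensory neurons more excitable. Its levels were 4.57, 5.79 and 2.81 CPM in DRG neurons, 1.21, 2.00 and 2.55 CPM in OPC, and 0.0941, 0.166 and 0.138 CPM in astrocytes. The astrocyte libraries were far below both other groups, while the lowest DRG library and the highest OPC library nearly met. Cacna1h in DRG neurons exceeded astrocytes 32.7-fold (log2 5.03, SE 0.51, adjusted p = 4.1e-05), and OPC exceeded astrocytes 14.3-fold (log2 3.84, SE 0.49, adjusted p = 0.000273). The step from OPC to DRG neurons was 2.29-fold (log2 1.20, SE 0.41, adjusted p = 0.0314). That last call ended in 6 of 17 alternative settings: without DRG replicate 1 (adjusted p = 0.0637) or 2 (0.122), without OPC replicate 1 (0.0927) or 2 (0.0776), with library size alone (0.0582) and with the transcript length trend removed (0.0744). All reads of Cacna1h fell on 1 of its 2 accessions. The other T-type gene of the list, Cacna1g (chr11:94408391-94474400), had 4 accessions and 2 reads in all, 1 each in OPC replicates 1 and 2.

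The α2δ genes encode the extracellular subunits that carry α1 to the membrane, and the α2δ proteins of Cacna2d1 and Cacna2d2 are the ones that bind the pain and epilepsy drug gabapentin. Cacna2d3 (chr14:28904943-29722775) was measured at 74.9, 68.9 and 76.3 CPM in DRG neurons, 24.1, 14.7 and 12.8 CPM in OPC, and 14.7, 3.59 and 5.94 CPM in astrocytes. DRG neurons overlapped neither glial type, while OPC and astrocytes overlapped. Cacna2d3 in DRG neurons exceeded astrocytes 9.06-fold (log2 3.18, SE 0.50, adjusted p = 0.000566) and OPC 4.27-fold (log2 2.10, SE 0.48, adjusted p = 0.00446). Astrocytes replicate 1, the library with the most microglia marker reads, had the highest astrocyte value. Without it the log2 difference of DRG neurons from astrocytes was 3.94. OPC against astrocytes gave a log2 difference of 1.08 (SE 0.47, adjusted p = 0.0799), which became 1.85 (adjusted p = 0.00242) without Astrocytes replicate 1 and 1.22 (adjusted p = 0.0295) with the replicate number as a block. The part of the markers in this value was not tested.

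Cacna2d1 (chr5:15934264-16374511) has 5 accessions, and few of its reads were specific to 1 of them. DRG neurons held 14, 20 and 27 such reads (0.474, 0.421 and 0.697 CPM), OPC held 3, 1 and 0 (0.0671, 0.0204 and 0 CPM), and the 3 astrocyte libraries held 0. The DRG libraries lay above all others, and OPC and astrocytes met at 0. For these isoform-specific reads alone, a floor of 3 counts over the astrocyte group put the Cacna2d1 excess of DRG neurons at 23.1-fold or more. This bound does not extend to the expression of the whole gene, because shared reads are taken to be outside the counts. Against OPC the difference was 16.5-fold (log2 4.04, SE 0.79), and its log2 value was 5.26 without OPC replicate 1. Both are given as descriptions, with no test, because only the DRG libraries carried this gene past the filter. OPC against astrocytes did not pass (adjusted p = 0.085, and 0.0469 without OPC replicate 3). In DRG neurons 44 reads fell on NM_001110844 and 17 on NM_001110843, and the 4 OPC reads were on NM_001110843. When each gene was represented by the accession with the most counts, Cacna2d1 was at 0 in both glial types and its fitted log2 difference of DRG neurons from OPC was 7.07. Cacna2d2 (chr9:107399733-107529346), with 5 accessions, was listed at 0 in all 9 libraries. A value of 0 sets no limit on the expression of a gene with several accessions, because reads shared by its isoforms are taken to be among those listed as ambiguous, and the sensory neuron marker Prph and the splicing regulator Rbfox2 were also listed at 0 in all 9 libraries.

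The β subunits bind the inner side of α1 and control its passage to the membrane. Cacnb3 (chr15:98628436-98644536), the β subunit often paired with the N-type pore, was measured at 7.04, 17.5 and 15.5 CPM in DRG neurons, 0.447, 0.590 and 0.602 CPM in OPC, and 0.771, 0.475 and 0.470 CPM in astrocytes. Every DRG library was above every glial library, and the glial types overlapped. Cacnb3 in DRG neurons exceeded astrocytes 23.1-fold (log2 4.53, SE 0.46, adjusted p = 4.2e-05) and OPC 24.3-fold (log2 4.60, SE 0.46, adjusted p = 4.09e-05). OPC against astrocytes gave a log2 difference of −0.07 (SE 0.42, adjusted p = 0.899). Cacnb1 (chr11:98001508-98023034), the β subunit of the skeletal muscle channel that neural cells also use, has 6 accessions and was listed at 0 in all 9 libraries.

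All 1792 reads of Cacnb3 fell on NM_001044741, the accession whose first exon (chr15:98632376-98632520 in GENCODE vM21) lies upstream of the first exons of the other accessions, NM_001286226 (chr15:98634767-98635213) and NM_007581 (chr15:98635105-98635213). These 2 were listed at 0 in all libraries. The first exon of NM_007581 lies inside that of NM_001286226, so reads from it are shared by both and taken to be ambiguous. Their values of 0 therefore do not show that the downstream starts are unused. The counts of Cacnb3 are read as describing the transcript from the upstream start. Reads common to 2 or all 3 of the accessions are taken to be outside them. The 250 bases before 2 RefSeq starts (GRCm38.p6, the assembly of mm10) are shown, with matches to the GC box (GGGCGG, either strand) in capitals. Isoform-specific reads were counted for the upstream start alone, and whether the downstream start was used was not tested. Both windows lie on the plus strand, at chr15:98632078-98632327 and chr15:98634517-98634766.
Cacnb3 upstream start: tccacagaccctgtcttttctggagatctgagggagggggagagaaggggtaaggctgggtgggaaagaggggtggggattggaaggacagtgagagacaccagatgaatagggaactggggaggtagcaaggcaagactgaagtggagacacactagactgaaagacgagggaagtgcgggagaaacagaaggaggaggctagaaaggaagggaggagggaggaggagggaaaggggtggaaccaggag
Cacnb3 downstream start: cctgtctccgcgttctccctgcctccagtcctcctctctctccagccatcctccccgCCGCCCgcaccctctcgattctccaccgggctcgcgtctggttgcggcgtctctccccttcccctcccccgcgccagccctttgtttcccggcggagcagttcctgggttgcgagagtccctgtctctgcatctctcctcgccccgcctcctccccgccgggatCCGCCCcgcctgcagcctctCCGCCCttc
The upstream window had 56.0% G and C, 2 CpG dinucleotides and 0 GC boxes. The downstream window had 70.4% G and C, 23 CpG dinucleotides and 3 GC boxes. Over 32851 RefSeq windows of this length the median was 52.4% G and C with 6 CpG dinucleotides, and 32.74% held a GC box.

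RefSeq windows were found for 7 of the 10 genes, 9 windows in all. Those of Cacna1b and Cacna2d3, the listed pore and α2δ genes with the highest counts in DRG neurons, are shown for comparison with Cacnb3. They lie on the minus strand, at chr2:24763153-24763402 and chr14:29721865-29722114, with GC boxes again in capitals. The Cacna1b window lies before the start of NM_007579, which took 611 of its counted reads. NM_001042528, with 2312 reads, starts further downstream, at chr2:24763047 in GENCODE vM21. The bases before that start are not shown as a window of their own.
Cacna1b start: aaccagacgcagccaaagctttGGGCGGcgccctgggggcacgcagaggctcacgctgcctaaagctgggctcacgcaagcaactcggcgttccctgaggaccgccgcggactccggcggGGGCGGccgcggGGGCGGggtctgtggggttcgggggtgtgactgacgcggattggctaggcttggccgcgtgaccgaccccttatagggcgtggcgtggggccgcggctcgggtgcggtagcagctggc
Cacna2d3 start: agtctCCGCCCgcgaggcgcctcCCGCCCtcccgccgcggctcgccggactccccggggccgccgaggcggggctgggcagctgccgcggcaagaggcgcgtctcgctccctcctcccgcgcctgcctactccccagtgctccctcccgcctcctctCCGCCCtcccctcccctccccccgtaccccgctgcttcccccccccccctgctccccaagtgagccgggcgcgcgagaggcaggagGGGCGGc
The Cacna1b window had 72.0% G and C, 29 CpG dinucleotides and 3 GC boxes, and the Cacna2d3 window had 80.0% G and C, 30 CpG dinucleotides and 4 GC boxes. Neither a cAMP response element (TGACGTCA, in 1.55% of all windows) nor a TATA box (TATAAA, 12.37%) was matched in any of the 9 windows on either strand. A match or its absence describes these letters only.

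The γ genes of the list are TARPs. Cacng4 (chr11:107732357-107794706) had 1 accession, so all its uniquely assigned reads count. It was measured at 176, 135 and 137 CPM in OPC, 9.81, 4.53 and 1.16 CPM in DRG neurons, and 7.22, 8.98 and 11.2 CPM in astrocytes. OPC lay far above both other groups, which overlapped. Cacng4 in OPC exceeded DRG neurons 29.0-fold (DRG against OPC, log2 −4.86, SE 0.66, adjusted p = 0.000238) and astrocytes 16.3-fold (log2 4.03, SE 0.63, adjusted p = 0.000823). DRG neurons against astrocytes gave a log2 difference of −0.83 (SE 0.57, adjusted p = 0.239). Without DRG replicate 1 that value was −1.67 (adjusted p = 0.0231), and the value against OPC was −5.71.

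Cacng7 (chr7:3332027-3368221), also with 1 accession, was measured at 102, 82.5 and 111 CPM in OPC, 73.6, 68.1 and 68.9 CPM in DRG neurons, and 51.3, 42.9 and 49.1 CPM in astrocytes. The 3 groups did not overlap, but they lay close together. Cacng7 in OPC exceeded astrocytes 2.06-fold (log2 1.04, SE 0.17, adjusted p = 0.000866). DRG neurons were 1.47-fold above astrocytes (log2 0.56, SE 0.16, adjusted p = 0.0158) and 1.40-fold below OPC (log2 −0.49, SE 0.16, adjusted p = 0.0281). The call against astrocytes ended with library size alone (log2 0.30, adjusted p = 0.143) and without Astrocytes replicate 2 (adjusted p = 0.0633). The call against OPC ended in 7 of 17 alternatives, among them DESeq2 (log2 −0.32, adjusted p = 0.129), the removed length trend (adjusted p = 0.0532), and the fits without DRG replicate 2 (0.0901) or 3 (0.0821) or OPC replicate 1 (0.0635). Without OPC replicate 3 the log2 difference was −0.15 (adjusted p = 0.461). Relative to the median of all genes, which moved from −0.13 to −0.39 in DRG neurons against astrocytes when library size alone was used, Cacng7 was 0.69 higher under both scalings.

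**Figure D3:**
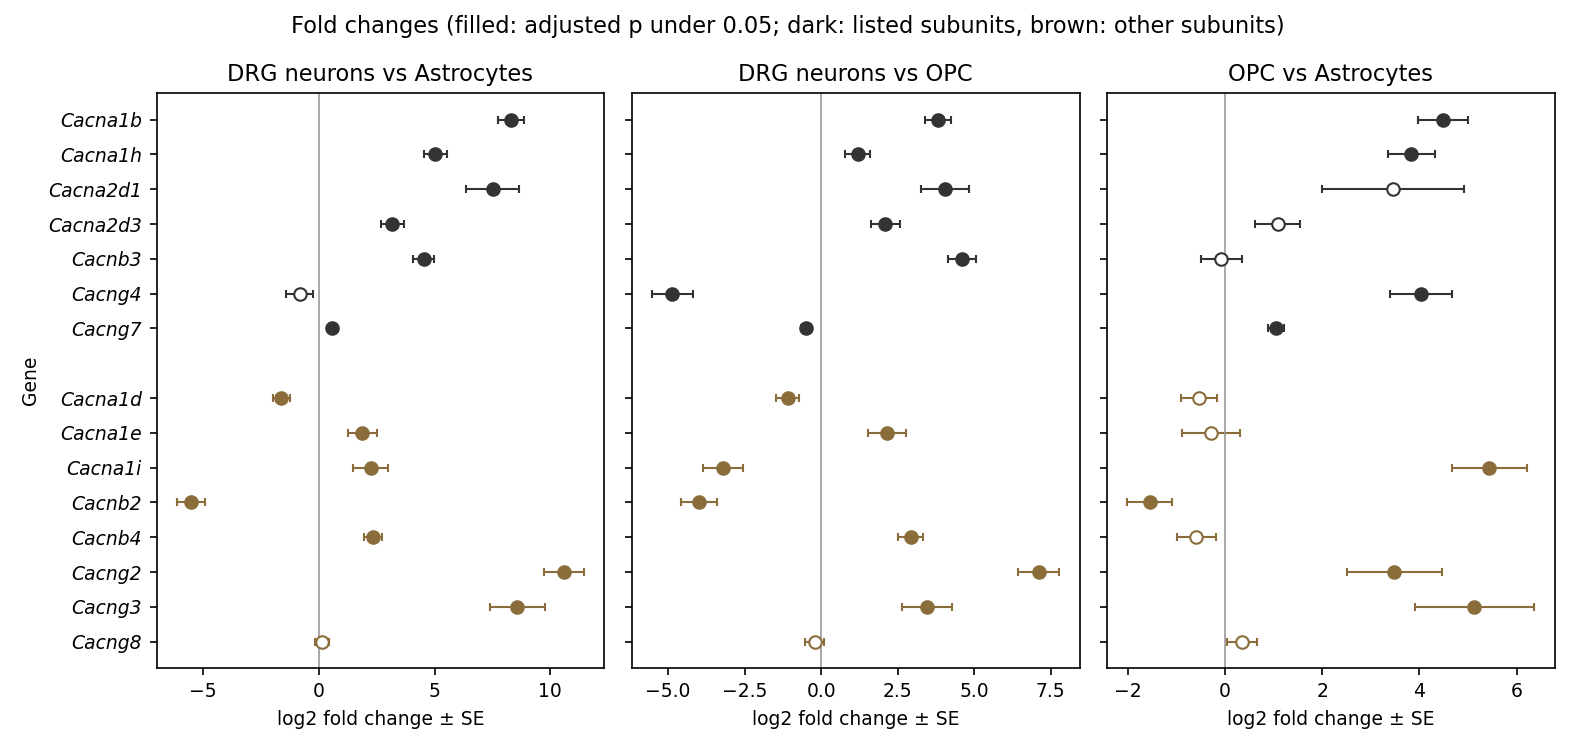
Log2 fold change ± SE of 7 tested genes of the list (dark) and 8 other calcium channel subunits (brown) in the 3 comparisons, with the horizontal scale differing between panels. Filled points passed an adjusted p of 0.05. Cacna2d1, Cacng2 and Cacng3 needed their DRG libraries to pass the filter on low counts, and Cacna1i its OPC libraries. Their filled points in comparisons of that cell type are descriptions with no test. Cacna1b, Cacna1h, Cacna2d1, Cacna2d3 and Cacnb3 lie right of 0 in both comparisons of DRG neurons, and Cacng4 and Cacng7 lie left of 0 against OPC.

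Counted over the comparisons, DRG neurons against astrocytes gave 6 genes higher and 0 lower of the 7 tested, where 60.2% of 14848 genes were called, 27.4% higher and 32.8% lower. DRG neurons against OPC gave 5 higher and 2 lower, where 59.5% of genes were called, 28.4% higher and 31.1% lower. OPC against astrocytes gave 4 higher and 0 lower, where 51.8% of genes were called, 26.3% higher and 25.5% lower. Without Cacna2d1 the counts were 5 higher and 0 lower, 4 higher and 2 lower, and 4 higher and 0 lower of 6 genes. The 3 comparisons share libraries pairwise.

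Levels of different genes were compared per kilobase of transcript, among the 12 subunit genes with 1 accession. By its mean Cacng7 ranked first in all 3 cell types, with 21.6 ± 1.98 CPM per kb in astrocytes, 31.7 ± 1.34 CPM per kb in DRG neurons and 44.5 ± 6.54 CPM per kb in OPC. Cacng4 reached 42.7 ± 6.55 CPM per kb in OPC, within the spread of Cacng7 there, but 2.61 ± 0.573 in astrocytes and 1.48 ± 1.25 in DRG neurons. In OPC replicates 1 and 2 Cacng4 was above Cacng7 (50.2 and 38.6 against 46.2 and 37.3 CPM per kb). Cacna2d3 ranked second in DRG neurons, at 19.9 ± 1.07 CPM per kb, and held 4.64 ± 1.64 in OPC and 2.19 ± 1.59 in astrocytes. The pores Cacna1b and Cacna1h have more than 1 accession and are outside this ranking.

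**Figure D4:**
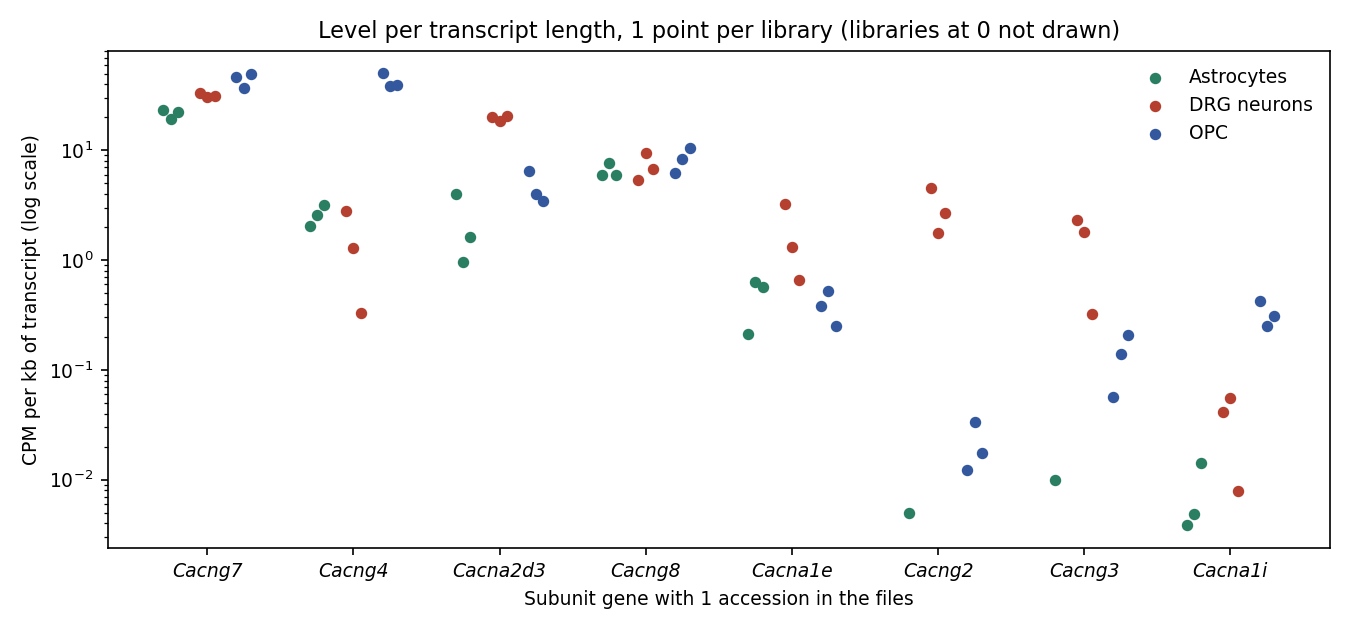
Level per transcript length, in CPM per kb on a log scale, of 8 subunit genes with 1 accession, with 1 point per library and libraries at 0 not drawn. Cacng7 lies between 19.4 and 50.0 in all 9 libraries, Cacng4 joins it in OPC alone, and Cacng2 is at most 0.0332 in every glial library.

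Of the 16 other genes of the 4 families, 12 were tested. Against astrocytes 6 were higher and 3 lower in DRG neurons (median log2 2.06, and −0.13 over all genes). Against OPC 4 were higher and 4 lower (median −0.42, and −0.08 over all genes), and in OPC against astrocytes 5 were higher and 2 lower (median 1.34, and 0.09 over all genes). Over all genes 27.4% were higher and 32.8% lower in the first comparison, 28.4% and 31.1% in the second, and 26.3% and 25.5% in the third. Of the 12, 5 passed the filter whichever 1 cell type was left out, and of these 2 were higher and 2 lower in DRG neurons against each glial type, and 0 higher and 1 lower in OPC against astrocytes. The 8 that reached a mean of 1 CPM in any cell type are described by role.

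Among the pores, Cacna1e, the R-type pore, was measured at 48.2, 19.5 and 9.89 CPM in DRG neurons, 5.75, 7.77 and 3.73 CPM in OPC, and 3.20, 9.38 and 8.49 CPM in astrocytes. DRG libraries were all above the glial ones, although DRG replicate 3 was close to Astrocytes replicate 2. Cacna1e in DRG neurons exceeded astrocytes 3.68-fold (adjusted p = 0.0252) and OPC 4.49-fold (adjusted p = 0.0141). Both calls ended without DRG replicate 1, where the log2 differences fell from 1.88 to 1.07 (adjusted p = 0.119) and from 2.17 to 1.35 (0.0617). The first also ended without Astrocytes replicate 1 (0.0592) or 3 (0.0503). Cacna1i, a T-type pore like Cacna1h, was instead highest in OPC, at 4.11, 2.46 and 3.06 CPM against 0.406, 0.547 and 0.0775 CPM in DRG neurons and 0.0376, 0.0475 and 0.138 CPM in astrocytes. OPC overlapped neither group, and Cacna1i in OPC exceeded DRG neurons 9.23-fold and astrocytes 43.4-fold, given with no test because it needed the OPC libraries to pass the filter. Its 4.70-fold difference between DRG neurons and astrocytes (adjusted p = 0.0286) ended without Astrocytes replicate 1 (0.0837) or 2 (0.0853), or DRG replicate 1 (0.0620) or 2 (0.119).

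Cacna1d, an L-type pore, went the other way, with 0.634 ± 0.137 CPM in DRG neurons against 1.34 ± 0.370 CPM in OPC and 1.95 ± 0.473 CPM in astrocytes, as isoform-specific reads. Astrocytes exceeded DRG neurons 3.07-fold (adjusted p = 0.00478). The 2.12-fold difference from OPC (adjusted p = 0.0308) was lost when DRG replicate 2 (0.114), DRG replicate 3 (0.0847), OPC replicate 2 (0.114) or OPC replicate 3 (0.109) was left out. Cacna1a, the P/Q-type pore of central synapses, has 4 accessions and was listed at 0 in all 9 libraries.

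The other β genes split in opposite directions. Cacnb4 rose with Cacnb3, at 1.93, 3.20 and 2.69 CPM in DRG neurons, 0.313, 0.488 and 0.217 CPM in OPC, and 0.489, 0.475 and 0.581 CPM in astrocytes, and DRG neurons exceeded astrocytes 5.05-fold (adjusted p = 0.000946) and OPC 7.60-fold (adjusted p = 0.000307). Cacnb2 was lowest in DRG neurons, at 0.0677, 0.0421 and 0.0258 CPM, against 0.425, 0.936 and 0.842 CPM in OPC and 1.79, 1.54 and 3.15 CPM in astrocytes. No groups of Cacnb2 overlapped, and DRG neurons fell short of astrocytes 46.3-fold (adjusted p = 6.31e-05) and of OPC 15.8-fold (adjusted p = 0.000396). Its 2.93-fold lower value in OPC against astrocytes (log2 −1.55, adjusted p = 0.0182) ended without Astrocytes replicate 3 (0.0816) or OPC replicate 1 (0.0568), and was −0.45 (0.490) on the accession with the most counts. The accessions differed between the glial types: NM_001252533, with a start far inside the gene, took 46.3, 36.9 and 65.8% of Cacnb2 reads in astrocytes and 0 of 19, 46 and 35 reads in OPC, which allows up to 15.8, 6.52 and 8.57% by the limit of 3 counts, with the highest exact upper bound at 17.6% (exact two-sided permutation p = 0.1, adjusted 0.1, the smallest possible). As for Cacna1b, these are shares of isoform-specific reads and not of transcripts.

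The TARP Cacng2, or stargazin, was measured at 24.9, 9.66 and 14.9 CPM in DRG neurons, at most 0.183 CPM in OPC and 1 read in all astrocyte libraries together. Its ratio of DRG neurons to astrocytes was 2013 (95% counting interval 361 to 79550), and it exceeded OPC 138-fold. Cacng3 was measured at 6.43, 4.97 and 0.904 CPM in DRG neurons, 0.157, 0.387 and 0.577 CPM in OPC and 1 read in astrocytes, with a ratio of DRG neurons to astrocytes of 523 (93.5 to 20720) and a 10.9-fold difference from OPC. Cacng2 and Cacng3 needed their DRG libraries to pass the filter, so these values are descriptions with no test. In DRG neurons Cacng2 was far above its glial levels while Cacng4 was far below its OPC level. Cacng3 was far above its glial levels in DRG replicates 1 and 2 alone. In DRG replicate 3 it was at 0.904 CPM, near the 0.577 CPM of OPC replicate 3. Cacng8 passed the test in no comparison, at 9.93 ± 2.76 CPM in DRG neurons against 11.5 ± 2.88 CPM in OPC and 9.04 ± 1.34 CPM in astrocytes (adjusted p = 0.714 against astrocytes, 0.563 against OPC and 0.360 between the glial types).

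The γ genes lie in clusters. Cacng4 sits on chromosome 11 between Cacng1, 15.9 kb away, and Cacng5, 79.9 kb away, and Cacng7 on chromosome 7 is followed after 25.8 kb by Cacng8 and, 7.3 kb further, by Cacng6. Cacng1 held 79 reads in OPC, 6 in DRG neurons and 1 in astrocytes, with a ratio of OPC to astrocytes of 76.7 (13.4 to 3067), so it was highest where Cacng4 was. Cacng5 held 28 reads in OPC, 14 in DRG neurons and 5 in astrocytes, and passed in no comparison (adjusted p = 0.347, 0.677 and 0.192). Cacng6 held 77 reads in astrocytes against 4 in OPC and 0 in DRG neurons, next to a Cacng8 without called differences. Of the 77, 59 were in Astrocytes replicate 1, with 10 and 8 in replicates 2 and 3. Only the astrocyte libraries carried Cacng6 past the filter, and only the OPC libraries carried Cacng1, so their values are descriptions with no test. Cacng1, Cacng5 and Cacng6 fall outside the rule for named genes and were chosen after their values were seen, as neighbours.

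Because TARPs act on AMPA receptors, 8 genes of the receptor core and its other auxiliary proteins were read beside them, of which 4 were tested. Against astrocytes 2 were higher in DRG neurons (median log2 2.12) and 3 in OPC (median 1.60), 1 was higher in DRG neurons than in OPC (median 0.10), and none was called lower in these 3 comparisons (all genes, medians −0.13, 0.09 and −0.08, with 27.4, 26.3 and 28.4% called higher). Gsg1l, an auxiliary subunit, stood at 24.5 ± 11.6 CPM in DRG neurons, with 4.79 ± 1.05 CPM in OPC and 2.09 ± 0.408 CPM in astrocytes (adjusted p = 0.00012 for DRG neurons against astrocytes and 0.000933 against OPC). Gria4, a receptor subunit, stood at 12.4 ± 5.10 CPM in DRG neurons, with 9.04 ± 4.65 CPM in OPC and 1.17 ± 0.245 CPM in astrocytes (adjusted p = 0.000374 and 0.00111 for DRG neurons and OPC against astrocytes). Gria2, the subunit that limits calcium entry, held 43.0 ± 30.4 CPM in OPC, 15.97 ± 1.91 CPM in DRG neurons and 10.7 ± 3.71 CPM in astrocytes. OPC and astrocyte libraries overlapped, although their difference passed (adjusted p = 0.0156), and DRG neurons passed against neither (0.388 against astrocytes and 0.0506 against OPC).

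Of 19 genes for channel regulators and active zone anchors, proteins that hold calcium channels at release sites or change their traffic, gating or splicing, 17 were tested. In DRG neurons 12 were higher and 2 lower than in astrocytes (median log2 2.37), and 12 higher and 3 lower than in OPC (median 2.12). In OPC 6 were higher and 3 lower than in astrocytes (median 0.41). The medians of all genes were −0.13, −0.08 and 0.09, with 27.4, 28.4 and 26.3% called higher and 32.8, 31.1 and 25.5% lower. Unlike those of the subunits, these tallies were not repeated without genes that 1 cell type alone carried past the filter, so they are descriptions. Bsn, an active zone scaffold, stood at 345 ± 64.4 CPM in DRG neurons, with 55.0 ± 3.15 CPM in OPC and 3.36 ± 0.833 CPM in astrocytes, the same order as Cacna1b (adjusted p = 6.01e-07 for DRG neurons against astrocytes, 1.65e-05 against OPC and 6.9e-06 between the glial types). Rbfox1, a splicing regulator whose targets include calcium channel transcripts, stood at 28.1 ± 0.958 CPM in DRG neurons, with 0.980 ± 0.172 CPM in OPC and 0.0418 ± 0.0357 CPM in astrocytes (adjusted p = 1.73e-06 against astrocytes and 1.26e-05 against OPC). Gem, a small GTP-binding protein that inhibits the channels by binding β subunits, was highest in astrocytes, at 66.7 ± 14.5 CPM against 1.24 ± 0.560 in OPC (adjusted p = 5.89e-05) and 1.36 ± 0.789 in DRG neurons.

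For each tested gene the 3 genes with the most similar profile were found by the root mean square difference of log2 CPM, each profile centred on its own mean, over the 9 libraries. These libraries are shared by all genes and fall into 3 cell types, so likeness mainly reflects the order and size of 3 group levels. Cacna1b was closest to Mast1 (0.34), Spock2 (0.43) and Sprn (0.48). Cacna1h was closest to Mycn (0.29), Gng2 (0.31) and BC030500 (0.41). Cacna2d3 was closest to Hdac11 (0.29), Kcnn1 (0.32) and Cdr1os (0.36), the last an antisense RNA whose reads cannot be told from those of its partner unless strand was used in counting. Cacna2d1 was closest to Tmc5 (0.14), Eif5a2 (0.23) and Erc2 (0.27), at levels where its profile rests on 65 reads. Cacnb3 was closest to the homeobox gene Hoxa6 (0.22), the serotonin receptor gene Htr1d (0.25) and the transcription factor gene Ebf3 (0.26). Cacng4 was closest to Traf4 (0.45), Efs (0.47) and the potassium channel gene Kcnd2 (0.47), and Cacng7, which varied least, to Noa1 (0.10), Atp5h (0.11) and Sppl3 (0.11).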

How the data were processed

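Stranded mRNA libraries of 9 mouse cultures were aligned to mm10 with TopHat2 and counted with HTSeq (source: per the submitters' processing notes). Tool versions, counting mode and strand use are not given in the sources used here. Each deposited table holds the authors' raw read counts by RefSeq transcript accession, 33787 in each library, with 5 rows of unassigned reads (37.1 to 46.9% of all reads) that were left out. Between 22.0 and 24.7% of reads were listed as ambiguous, a class taken here to include reads shared by isoforms. Accessions were named from RefSeq GRCm38.p6 (33315) and GENCODE vM21 (193), 279 kept their identifier, and counts were added per gene (24170 genes, 19398 with 1 accession). Transcript lengths came from GENCODE vM21.

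Genes were tested by quasi-likelihood in edgeR 4.0.16 (glmQLFTest, R 4.3.3) on all 9 libraries in 1 model with TMM factors. The filter filterByExpr (minimum count 10) kept 14848 genes, leaving 6 residual degrees of freedom. All 14848 p-values were adjusted together (Benjamini-Hochberg, threshold 0.05). SEs were derived from the fitted log2 difference and its F statistic (size over the square root of F). The series design calls the replicates biological replicate experiments. Scripts were tested on simulated data. Alternatives were DESeq2 1.42.0, library size alone, no filter, only the compared libraries, a replicate block, 1 accession per gene, a removed length trend (loess span 0.5), and leaving out libraries.

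The genes and the lists were chosen with earlier results of these data known. All 10 genes are named; other subunits are named from a mean of 1 CPM in any cell type, at most 2 genes with the smallest adjusted p per comparison in other lists, and the 3 most similar profiles (2 added to counts before log2). Same-numbered libraries of different cell types had correlations of their deviations from −0.036 to 0.128 (9 pairs). Differently numbered ones had −0.13 to 0.078 (18 pairs). The ranges overlap and the labels give no pairing, so the numbers were not taken to pair libraries, though a shared preparation is not excluded.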

Additional observations from a re-analysis of the deposited data

How the results depend on the processing

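Counts of called genes among the 10 stayed within 1.5 times of the 6, 7 and 4 given for DRG neurons against astrocytes, for DRG neurons against OPC, and for OPC against astrocytes in all 17 alternatives run. Leaving out 1 library at a time gave 5 to 7, 5 to 7 and 4 to 5. All these counts include Cacna2d1, which only its DRG libraries carried past the filter. Without it the main fit gave 5 higher and 0 lower, 4 higher and 2 lower, and 4 higher and 0 lower of 6 genes. Under the replicate block the counts with Cacna2d1 were 6, 7 and 5. Of all genes 8747, 8694 and 7421 were then called, against 8938, 8833 and 7689. The labels do not say whether the replicate numbers pair the samples. The block ended the calls of Cacna1e (adjusted p = 0.0724) and Cacna1i (0.0680) in DRG neurons against astrocytes and of Cacna1d (0.0532) in DRG neurons against OPC, and changed no other call of a named subunit except that of Cacna2d3 given with its values. The log2 differences that changed sign were not called in any setting. For Cacng8 they became −0.13 (library size alone) and −0.086 (without DRG replicate 2) in DRG neurons against astrocytes, 0.22 without OPC replicate 3 and 0.22 also without Astrocytes replicate 1 in DRG neurons against OPC, and −0.058 without both of these libraries in OPC against astrocytes. In OPC against astrocytes Cacnb3 became 0.069 with the length trend removed, 0.21 without Astrocytes replicate 1 and 0.06 without OPC replicate 1, and Cacna1e became 0.012 with the length trend removed. Over all fits without 1 library, Cacng8 ranged from −0.086 to 0.31 against astrocytes and from −0.45 to 0.22 against OPC, and Cacnb3 from −0.30 to 0.21. In OPC against astrocytes Cacng2 held 16 reads against 1 and Cacng3 50 against 1, and both needed their DRG libraries to pass the filter. Cacng2 had an adjusted p of 0.0149, with 0.0571 without Astrocytes replicate 1 and 0.0515 without OPC replicate 2. Cacng3 had 0.00717, and 0.0780 only when Astrocytes replicate 1 and OPC replicate 3 were left out together. With so few reads these values are descriptions. Other log2 values also moved by over 1.5-fold. In DRG neurons against OPC, Cacng3, a description, had 3.45, and 4.14 without OPC replicate 3. Cacnb4 had 2.93 there, and 4.22 with 1 accession per gene, and Cacnb2 had −3.98, and −4.64 with 1 accession. Against astrocytes without Astrocytes replicate 3, Cacna1i had 2.94 in DRG neurons and 6.15 in OPC, the latter a description. Cacna1h in OPC against astrocytes had 3.84, and 3.21 without Astrocytes replicate 1 and OPC replicate 3. Against astrocytes without replicate 3, Cacng2 and Cacng3 had 0 reads there. The causes were not tested. With 1 accession per gene Cacna2d1 gave no value in OPC against astrocytes, since both groups were at 0. Few counted reads limit Cacna2d1 and Cacna1g in all cell types, and Cacna1b (9 reads) and Cacna1h (17 reads) in astrocytes. They also limit Cacnb3 in astrocytes (78 reads) and OPC (74 reads). All of these genes have several accessions, and reads shared by isoforms are taken to be outside the counts.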

Other observations

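Genes that move calcium inside the cell or out of it were read beside the channels that let it in. Of 20 genes for intracellular calcium handling, 19 were tested. In DRG neurons 9 were higher and 5 lower than in astrocytes (median log2 0.78), and 10 higher and 5 lower than in OPC (median 1.35). In OPC 8 were higher and 6 lower than in astrocytes (median 0.63). Over all genes 60.2, 59.5 and 51.8% were called in these comparisons, with medians of −0.13, −0.08 and 0.09. The tallies of this list were not repeated without genes that 1 cell type alone carried past the filter. Ryr2, a calcium release channel of the endoplasmic reticulum, stood at 279 ± 89.6 CPM in DRG neurons, against 10.1 ± 3.12 CPM in OPC and 2.86 ± 0.725 CPM in astrocytes (adjusted p = 3.41e-06 for DRG neurons against astrocytes and 1.3e-05 against OPC). Atp2b3, a calcium pump of the plasma membrane, held 186 ± 14.6 CPM in DRG neurons and 0.182 ± 0.275 in astrocytes (adjusted p = 1.67e-05). Slc8a3, a sodium-calcium exchanger, was at 2.76 ± 0.400 CPM in DRG neurons and 2.71 ± 0.725 in OPC, against 0.168 ± 0.0654 in astrocytes (OPC against astrocytes, adjusted p = 0.000118). Orai2, a store-operated calcium channel, stood at 129 ± 10.8 CPM in DRG neurons, against 72.4 ± 6.07 CPM in astrocytes and 30.8 ± 4.90 CPM in OPC (DRG neurons against OPC, adjusted p = 1.86e-05; OPC against astrocytes, 0.000438).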
